A study of Mus musculus with 5 samples.

Results

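The genes described here carry the IL-6 family signal from the cell surface to the nucleus in mouse liver and switch it off again. They are the receptor genes Il6ra, Il6st, Osmr and Lifr, the kinase genes Jak1 and Jak2, the transcription factor gene Stat3, the inhibitor genes Socs1 and Socs3, and Il1rn, which encodes the secreted IL-1 receptor antagonist. Members were every non-control probe whose RefSeq accession maps to 1 of these 10 symbols, whatever its value. This gave 10 of the 17016 gene symbols on the array, with 18 of its 41174 probes. Liver RNA from 5 samples of male C57BL/6N mice, called livers 1 to 5, was labelled with Cy5. The mice had an ethanol diet for 8 weeks and were then given 3 binges of ethanol at 5 g per kg; their age is not in the sources used here. Each sample shared an array with the same purchased RNA, named in the labels as Ambion Mouse Assorted Total RNA with liver as its tissue, in Cy3. All 5 samples form a single group without dye swap and without control-diet samples in the data used here, so every ratio sets these livers against that reference RNA and none measures an effect of ethanol. The labels do not say that the samples are separate animals, so a p-value here takes in the spread of 5 samples that may be technical repeats.

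As background, IL-6 binds its receptor Il6ra, and this pair recruits Il6st, the signalling chain shared by the whole cytokine family. Kinases of the JAK family bound to the receptor then phosphorylate STAT3, which enters the nucleus and turns on acute phase genes in hepatocytes, together with Socs3, whose product blocks the receptor and its kinases. Oncostatin M and leukaemia inhibitory factor use Il6st together with Osmr or Lifr, and Il1rn, which keeps IL-1 from its receptor, is itself made by hepatocytes and leukocytes during inflammation.

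The 5 livers differed most in Socs1, Socs3 and Il1rn, with SDs of 0.69 to 1.19, less in Stat3 at 0.47, and by 0.36 or less in the receptor and kinase probes. For Stat3, Socs1, Socs3 and Il1rn liver 2 held the highest ratio, and for Stat3, Socs3 and the brighter Il1rn probe liver 3 held the lowest. Of the 16 member probes with a value in all 5 livers, 10 were highest in liver 2, against 23% of all such probes, and 6 were lowest in liver 3, against 17.1%. Osmr, Jak1 and Il1rn enter the first count with both of their probes, and Osmr also the second. Probes of a gene measure the same RNA, so these are not counts of separate genes. Ratios are log2 values of liver over reference, so 1 unit is a 2-fold difference. In liver RNA from whole tissue, a change in the number of cells of a type and a change in RNA per cell cannot be told apart.

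Hepatocyte markers were detected in the liver channel, with 8 of 8 tested markers well above background on all arrays. The same held for 8 of 8 lymphocyte and 8 of 8 sinusoidal endothelial markers. Detection by this measure was thus not particular to hepatocyte markers and cannot show which tissue the RNA came from. Background-subtracted signal had medians of 78.4 to 177 in Cy5 and of 75.5 to 151 in Cy3, and the number of arrays limits the precision. Against the reference, 1 of the 18 member probes was called above and 3 were called below at a limma adjusted p under 0.05. Of all 31887 tested probes, 16.2% were called above, 11.5% below and 27.7% in either direction, so the members' 4 calls are no more than the background gives. No member probe was called with at least a 2-fold ratio, which 1.52% of all tested probes were. The median of the mean ratios was 0.12 over the member probes and 0 over all tested probes.

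**Figure D1:**
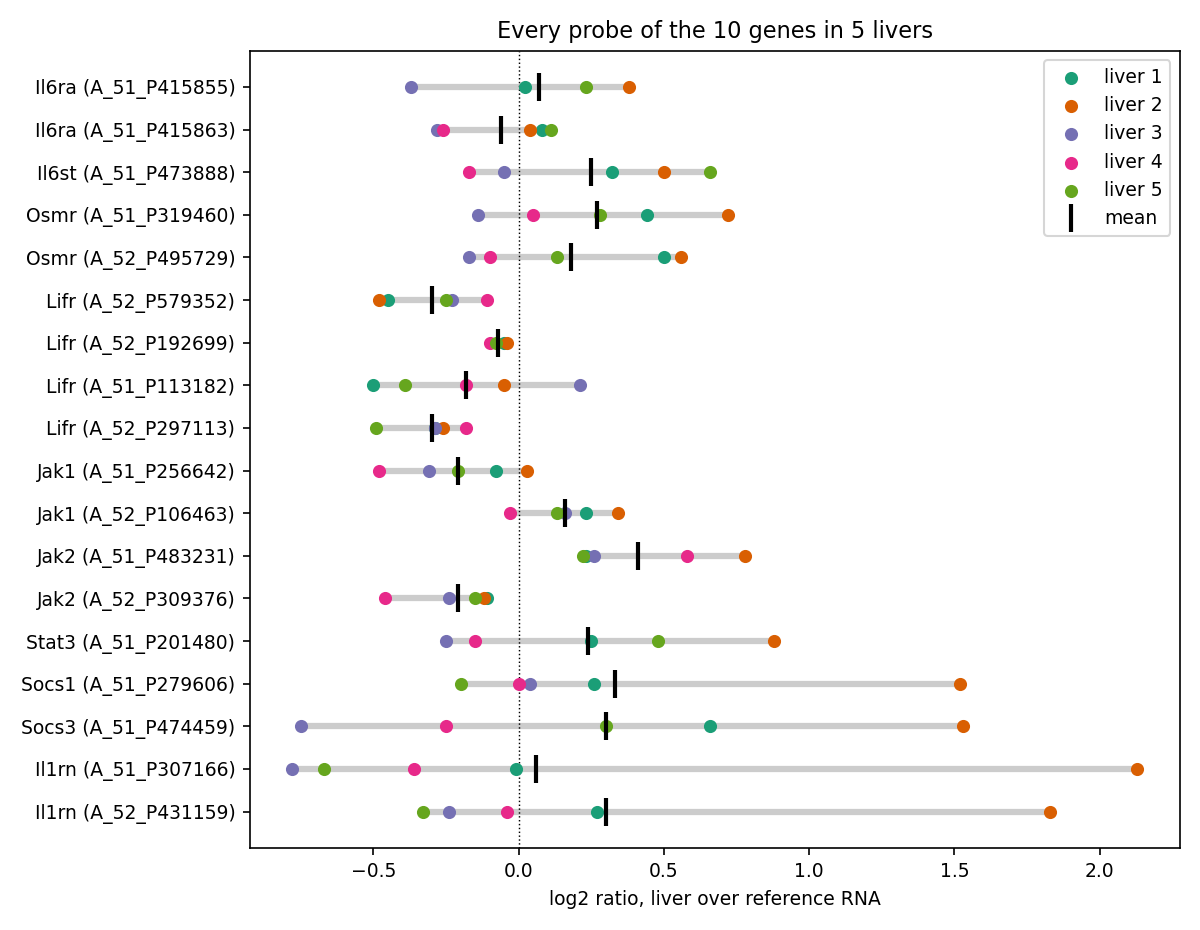
Log2 ratio of liver over reference (horizontal axis) for each of the 18 probes of the 10 genes (rows), with 1 point per liver, a grey bar from the lowest to the highest liver and a black tick at the mean. The receptor and kinase probes stay between -0.50 and 0.78, while Socs1, Socs3 and Il1rn reach 1.52 or more in liver 2.

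Among the receptors, Il6ra encodes the chain that binds IL-6 itself. Its brighter probe, A_51_P415855, had log2 ratios of 0.02, 0.38, -0.37 and 0.23 in livers 1, 2, 3 and 5. The liver 4 spot was marked non-uniform in Cy5 and left out, which gave a mean of 0.07 ± 0.32 (SD, n = 4) and a limma adjusted p of 0.725. The other probe, A_51_P415863, stood at 0.08, 0.04, -0.28, -0.26 and 0.11 in livers 1 to 5, with a mean of -0.06 ± 0.19 (n = 5, limma adjusted p = 0.63). Both probes were low in liver 3, and neither mean was called.

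Il6st encodes the shared signalling chain and has 1 probe. Its ratios were 0.32, 0.50, -0.05, -0.17 and 0.66 in livers 1 to 5, with livers 1, 2 and 5 above the reference and livers 3 and 4 slightly below it. The mean of 0.25 ± 0.36 (SD, n = 5) did not pass the test (limma adjusted p = 0.162).

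Osmr encodes the chain that pairs with Il6st to bind oncostatin M. Its probe A_51_P319460 had ratios of 0.44, 0.72, -0.14, 0.05 and 0.28, and its probe A_52_P495729 had 0.50, 0.56, -0.17, -0.10 and 0.13. Both probes ordered the livers alike, from liver 2 down through livers 1, 5 and 4 to liver 3, and their means of 0.27 ± 0.33 and 0.18 ± 0.34 (SD, n = 5) were not called (limma adjusted p = 0.0966 and 0.248). The first probe was called without liver 3, at 0.37 with an adjusted p of 0.0368, and with median centring in place of loess, at 0.33 with an adjusted p of 0.0426. Osmr was dim. Background-subtracted signals of the first probe were 64.3, 88.8, 25, 25.2 and 50.7 in liver and 19.9, 17.2, 21, 24.9 and 42.6 in the reference, whose spot was well above background on 1 of the 5 arrays. With Agilent's processed signals its mean ratio was 0.72 and was not called (adjusted p = 0.154). The SDs of these probes were 2.35 and 2.64 times the typical SD at their brightness, beside 2.46 times for Stat3, but neither probe entered the spread test because of its dim reference.

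Lifr, the receptor chain for leukaemia inhibitory factor, was the receptor gene with calls, and both were below the reference. Probe A_52_P297113 stood at -0.29, -0.26, -0.29, -0.18 and -0.49 in livers 1 to 5, below the reference in 5 of 5, with a mean of -0.30 ± 0.11 (SD, n = 5, limma adjusted p = 0.0164). Probe A_52_P579352 stood at -0.45, -0.48, -0.23, -0.11 and -0.25, also below in 5 of 5, with a mean of -0.30 ± 0.16 (n = 5, limma adjusted p = 0.026). These ratios correspond to less than a 1.5-fold difference, and they were small even where all livers lay on the same side. The call of the first was lost without liver 5 (adjusted p = 0.0549), and that of the second without liver 1 (0.0769), 2 (0.0678), 3 (0.0546) or 5 (0.051). The remaining probes were not called. Probe A_51_P113182 ran from -0.50 in liver 1 to 0.21 in liver 3 with a mean of -0.18 ± 0.28 (n = 5, limma adjusted p = 0.241). Probe A_52_P192699 lay between -0.10 and -0.04 in 4 livers with a mean of -0.07 ± 0.03 (n = 4, limma adjusted p = 0.577). In the processed signals the first called probe stood at -0.54. Averaged over its 4 probes, Lifr stood at -0.21 with a limma adjusted p of 0.0469.

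The kinase genes gave answers that depended on the probe. Jak1, the kinase used most by the IL-6 receptor complex, had ratios of -0.08, 0.03, -0.31, -0.48 and -0.21 with probe A_51_P256642 and of 0.23, 0.34, 0.16, -0.03 and 0.13 with probe A_52_P106463. The first probe lay below the second in every liver, with a mean difference of -0.38 ± 0.08, and neither mean (-0.21 ± 0.20 and 0.16 ± 0.14, n = 5) was called (limma adjusted p = 0.108 and 0.15). Liver 4 was lowest and liver 2 highest with both probes.

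Jak2, a related kinase that also serves growth hormone and haematopoietic receptors, was called in opposite directions by its probes. Probe A_51_P483231 stood at 0.23, 0.78, 0.26, 0.58 and 0.22 in livers 1 to 5, above the reference in 5 of 5, with a mean of 0.41 ± 0.25 (SD, n = 5, limma adjusted p = 0.0172). Probe A_52_P309376 stood at -0.11, -0.12, -0.24, -0.46 and -0.15, below it in 5 of 5, with a mean of -0.21 ± 0.14 (n = 5, limma adjusted p = 0.0472). The values of the probes did not overlap, and the mean difference between them was 0.63 ± 0.32. No direction for Jak2 as a gene follows from these arrays, and with probes averaged its ratio was 0.10 with an adjusted p of 0.316. The upper call was lost without liver 4 (adjusted p = 0.0685), under median centring (0.068), in the deposited ratios (0.0942) and from the processed signals (0.0948). The lower call was lost when any of livers 1 to 5 was left out, with adjusted p between 0.0533 and 0.16. It was also lost under median centring (0.147), without background correction (0.0506), without the filter (0.0515), without trend and robust prior (0.0601), and in the processed signals (0.0525) and the deposited ratios (0.0523), where the mean was -0.46.

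Stat3, the transcription factor at the centre of the pathway, was measured by 10 spots of the same probe on each array, which lets the spread between livers be set beside the spread between spots. Background-subtracted signals were 3040, 6220, 3440, 2820 and 4390 in livers 1 to 5 and 2560, 3540, 3530, 3950 and 4430 in the reference channel of the same arrays. The log2 ratios were 0.25, 0.88, -0.25, -0.15 and 0.48, highest in liver 2 and lowest in liver 3. Liver 2 thus stood 1.14 above liver 3, or 2.2-fold. Between 6 and 10 spots per array were usable, and their SD lay between 0.027 and 0.048. Spots of liver 2 ran from 0.84 to 0.95 and those of liver 5 from 0.44 to 0.53, while those of livers 3 (-0.30 to -0.19) and 4 (-0.21 to -0.10) overlapped. All other livers were separated from each other by more than the range of their spots, an error that does not include labelling or hybridisation. The mean of 0.24 ± 0.47 (SD, n = 5) was not called (limma adjusted p = 0.27).

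Socs3 is the feedback inhibitor that STAT3 switches on and that binds Il6st to stop the signal. Its signals were 981, 2700, 671, 912 and 1170 in livers 1 to 5 and 603, 946, 1010, 1310 and 1320 in the reference. The log2 ratios were 0.66, 1.53, -0.75, -0.25 and 0.30, in the same order of livers as Stat3 except that livers 1 and 5 changed places. From liver 3 to liver 2 they spanned 2.29, or 4.89-fold. After normalization the liver channel had an SD of 0.84 and the reference channel of 0.14, so the differences lay in the liver channel. The mean of 0.30 ± 0.87 (SD, n = 5) was not called (limma adjusted p = 0.492).

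Socs1, a SOCS protein that inhibits JAK kinases directly and restrains interferon as well as IL-6 signals, showed a different profile. Its signals were 96.3, 666, 237, 165 and 106 in livers 1 to 5 and 69.1, 184, 173, 207 and 167 in the reference. The log2 ratios were 0.26, 1.52, 0.04, 0.00 and -0.20, with liver 2 apart from the other livers, which lay between -0.20 and 0.26. The span from liver 5 to liver 2 was 1.72, or 3.29-fold, and the mean was 0.33 ± 0.69 (SD, n = 5, limma adjusted p = 0.331). Without liver 2 the mean was 0.03 with an SD of 0.19.

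Il1rn, whose protein occupies the IL-1 receptor without signalling, had the widest range of the 10 genes. Signals of its brighter probe, A_51_P307166, were 62, 664, 101, 108 and 62.4 in livers 1 to 5 and 50.3, 96.8, 160, 156 and 195 in the reference. The log2 ratios were -0.01, 2.13, -0.78, -0.36 and -0.67, with liver 2 alone clearly above the reference. The span from liver 3 to liver 2 was 2.91, or 7.52-fold. The other probe, A_52_P431159, gave 0.27, 1.83, -0.24, -0.04 and -0.33, again with liver 2 apart, although its reference spot was not well above background on the array of liver 1. The means of 0.06 ± 1.19 and 0.30 ± 0.89 (SD, n = 5) were not called (limma adjusted p = 0.926 and 0.504). Without liver 2 the brighter probe stood at -0.46 with an SD of 0.35 and was called below the reference (limma adjusted p = 0.0446), and the other probe was at -0.08 and was not called.

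**Figure D2:**
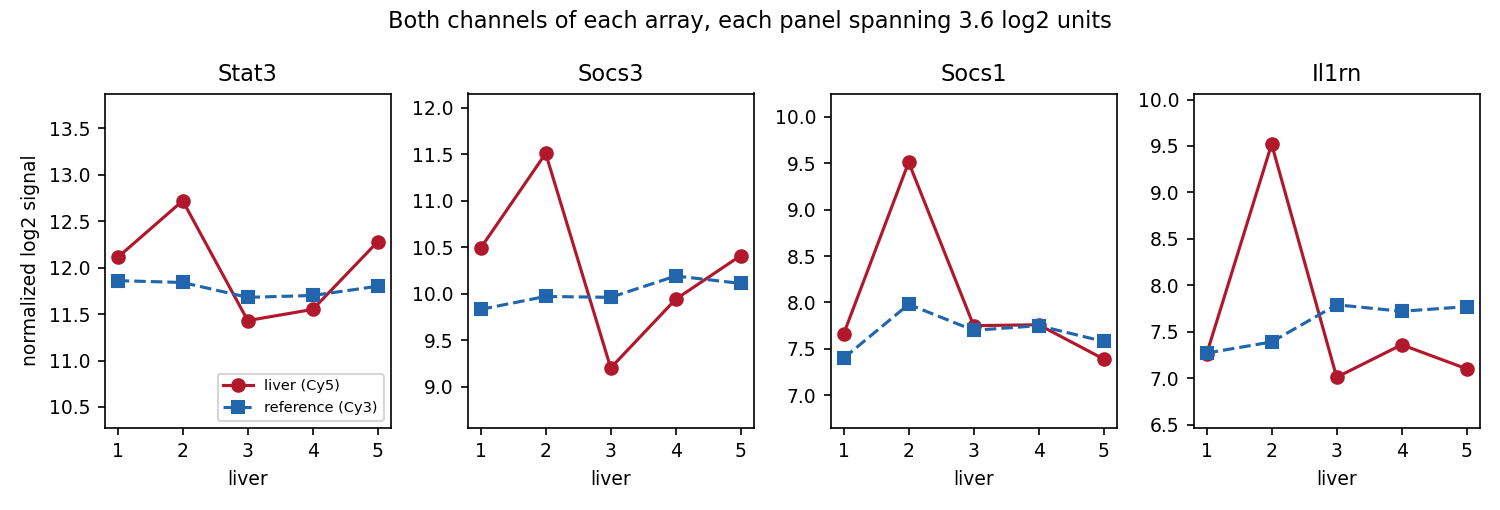
Normalized log2 signal (vertical axis) of the liver channel (red circles) and the reference channel (blue squares) on the arrays of livers 1 to 5 for Stat3, Socs3, Socs1 and the brighter Il1rn probe; lines only join points of a channel. The liver channel carries most of the spread, with an SD of 0.53 against 0.08 in the reference for Stat3 and of 0.84 against 0.14 for Socs3.

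Whether a gene varied more between livers than genes of its brightness usually do was asked with an F test of each probe's variance against limma's typical variance, over the 24009 probes that exceeded background clearly in each channel of all 5 arrays. Of the members, 13 probes of 9 genes entered the test, with a median SD of 0.25 against 0.19 over all probes in the test. After Benjamini-Hochberg adjustment 0 of the 13 passed, as did 0% of all 24009 probes. At an unadjusted p under 0.05 the brighter Il1rn probe, Socs3, Socs1 and Stat3 passed, 4 of 13 against 5.73% of all probes. Ranked by that p among all probes of the test, they stood at percentiles 99.9, 99.5, 98.7 and 95.8, and Il6st, the next of the members, at 86.1. For Il1rn, Socs3, Socs1 and Stat3 the adjusted p of this F test was 0.382, 0.58, 0.638 and 0.826. A chi-square form that takes the typical variance as known, added after the data had been seen, called the same 4 genes after adjustment, with p between 5.43e-29 for Il1rn and 0.00173 for Stat3, beside 9.41% of all probes. With median centring in place of loess 3 member probes passed the adjusted F test, Il1rn (7.04e-06), Socs1 (0.0373) and Socs3 (0.0498), beside 0.791% of all probes. Without liver 2, Socs3 was the single member with an unadjusted p under 0.05, at an SD of 0.62. Without liver 3, Stat3 did not reach it. The wide spread of Il1rn and Socs1 thus rests on liver 2 and that of Stat3 on livers 2 and 3, whereas Socs3 passed that threshold with any liver left out.

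**Figure D3:**
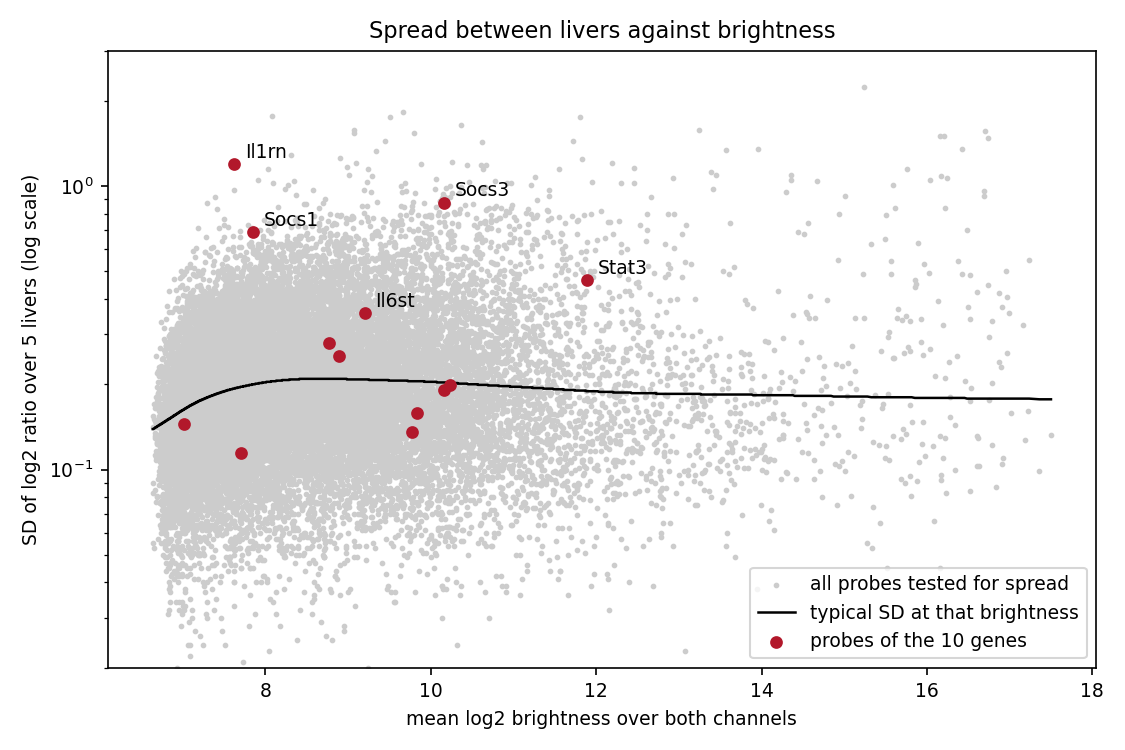
SD of the log2 ratio over 5 livers (vertical log axis) against mean log2 brightness over both channels (horizontal axis) for the 24009 probes of the spread test (grey), with the typical SD at each brightness (black line) and the 13 member probes in the test (red). Il1rn (1.19), Socs3 (0.87), Socs1 (0.69) and Stat3 (0.47) stand above the line, and the probes of Lifr, Jak1 and Jak2 lie near it.

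Promoter windows of 250 bases before each annotated start were read from RefSeq (GRCm38.p6) to show the sequence before the genes with the widest spread. Windows were found for 10 of 10 genes, 13 in all. They were searched for the spaced palindromes TTCNNNGAA and TTCNNNNGAA, forms that STAT proteins are known to bind and that read the same on both strands in their fixed letters. The first occurs in 7.02% and the second in 5.85% of 32851 windows of the same length. Socs3 held the first and Il1rn the second, and no window of the other 8 genes held either. The Socs3 window, chr11:117969367-117969616 on the minus strand, has its match at -154 to -146 from the start, and the Il1rn window, chr2:24345041-24345290 on the plus strand, at -121 to -112; capitals mark the match. Another Il1rn window that overlaps this window holds the same match, and the gene's other window holds none. A match describes letters only and says nothing of binding in these livers.
Socs3 promoter: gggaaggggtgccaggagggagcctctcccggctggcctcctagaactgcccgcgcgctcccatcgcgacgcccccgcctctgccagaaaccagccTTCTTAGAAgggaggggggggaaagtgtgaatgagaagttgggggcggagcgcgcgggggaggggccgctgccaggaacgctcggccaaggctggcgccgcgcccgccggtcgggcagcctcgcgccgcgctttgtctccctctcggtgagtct
Il1rn promoter: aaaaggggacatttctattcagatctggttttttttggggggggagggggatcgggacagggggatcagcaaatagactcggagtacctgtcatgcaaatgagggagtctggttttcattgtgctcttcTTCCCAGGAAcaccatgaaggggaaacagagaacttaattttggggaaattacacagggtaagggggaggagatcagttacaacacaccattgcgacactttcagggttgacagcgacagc

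Of the ligands, Il6 itself, printed on 10 spots per array, was near the limit of the measurement and was not tested. Its median background-subtracted signal was 20.4, 33.7, 7.43, 15.7 and 6.97 in livers 1 to 5 and between -2.91 and 4.5 in the reference. In the liver channel 9 of 10 spots were well above background in liver 1, 10 in liver 2, 2 in liver 3 and 0 in livers 4 and 5. In the reference channel 1 spot was, on the array of liver 3. Most Il6 spots were thus measurable in livers 1 and 2 and few or none in livers 3, 4 and 5.

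Of 9 listed ligands 7 were on the array and 6 were tested, and 2 were called above and 2 below the reference. Over all genes, each by its brightest probe, 14.5% were called above and 13% below. Il11, a ligand with its own receptor chain, stood at 0.39 ± 0.20, and Osm, which encodes oncostatin M, at 0.38 ± 0.33 (SD, n = 5, limma adjusted p = 0.012 and 0.0361). Clcf1, a ligand of the ciliary neurotrophic factor receptor, stood at -0.52 ± 0.11 and Ebi3, a subunit of IL-27, at -0.32 ± 0.20 (n = 5, limma adjusted p = 0.00193 and 0.023). The call of Osm was lost without liver 2 (0.0884), 3 (0.106) or 4 (0.11), that of Il11 without liver 4 (0.0511), and that of Ebi3 without liver 1 (0.0573) or 4 (0.0791). Ebi3 was not called in the processed signals (0.0554) or the deposited ratios (0.0562) either, at -0.54 in both, and Osm stood at 0.61 in both and was called. The list's median ratio was 0, beside -0.02 over all genes.

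Among the other receptor genes, Cntfr, the ciliary neurotrophic factor receptor, was called above the reference at 0.49 ± 0.09 (SD, n = 5, limma adjusted p = 0.00241). Adam17, the protease that sheds the IL-6 receptor from cells, was below the reference at -0.50 ± 0.15 (n = 5, limma adjusted p = 0.00336), and at -0.27 with its probes averaged (0.0194 as adjusted p). Adam10, the other sheddase listed, was not called.

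Among the other JAK and STAT genes, 1 of 7 tested was called, beside 14.5% of all genes called above and 13% below. This was Stat4 at 0.39 ± 0.13 (SD, n = 5, limma adjusted p = 0.00847), and its call was lost with median centring (0.109).

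Of the other inhibitors, 13 had a value in all 5 livers. Liver 2 was highest for 5 of these 13, against 23% of all probes with 5 values, and liver 3 was lowest for 9, against 17.1%. Of 14 inhibitors tested, 2 were called above the reference and 3 below, beside 14.5% and 13% of all genes. Pias2, a SUMO ligase that binds STAT proteins, was highest at 0.95 ± 0.39 (SD, n = 5, limma adjusted p = 0.00194), and stood at 0.53 with its probes averaged (0.00518 as adjusted p). Its family members Pias3, which binds STAT3, and Pias1 stood at -0.40 ± 0.28 and -0.31 ± 0.13 (n = 5, limma adjusted p = 0.019 and 0.0196). Pias3 was not called without liver 4 (0.0648). In the processed signals Pias3 and Cish, both dim, stood at -0.85 and -1.05 and were called. Ptpn6, a phosphatase mostly of blood cells, stood at 0.30 ± 0.20 and Cish, a SOCS family inhibitor of growth hormone signals, at -0.49 ± 0.42 (n = 5, limma adjusted p = 0.0376 and 0.0309). The Ptpn6 call was lost without liver 1, 2, 4 or 5 (0.0676 to 0.107), under median centring (0.394, at a ratio of 0.17) and with its probes averaged (0.489, at 0.07), and that of Cish without liver 1, 3, 4 or 5 (0.0805 to 0.102). Without liver 2 Cish was lower, at -0.68, since liver 2 held its single ratio above the reference, 0.25.

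For the spread of these inhibitors, 3 of 13 in the test had an unadjusted p under 0.05, beside 5.98% of all 12014 genes in the test, and 0 passed after adjustment. Socs2, the growth hormone feedback inhibitor, stood at -0.16, 1.42, -0.43, -0.23 and 0.05 in livers 1 to 5. Ptpn1, a phosphatase that acts on JAK2, stood at 0.07, 1.06, -0.56, -0.26 and 0.13. Ptpn2, a phosphatase of STAT proteins, stood at 0.02, 0.94, -0.29, -0.24 and -0.14. In all of these liver 2 was highest and liver 3 lowest, and without liver 2 none of the 13 had an unadjusted p under 0.05.

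The list of STAT3 target genes of liver was the pathway list with the widest differences in ratio between livers. For several of its genes the reference channel varied too, although its RNA was the same on all arrays. The SD of that channel was 0.99 for Saa1, 0.82 for Saa3, 0.66 for Saa2 and 0.63 for Hp. It was 0.15 for Lcn2 and 0.12 for Serpina3n, and its 95th percentile over the 24009 probes of the spread test was 0.4. The list's mean ratio, over the genes with a value in the liver in question, was 0.99, 1.51, -0.43, 0.64 and 0.62 in livers 1 to 5. Of 24 targets with 5 values, 21 were highest in liver 2, against 23% of all probes with 5 values. In liver 3, 19 were lowest, against 17.1%, and both livers were extreme for Socs3. At an unadjusted p under 0.05, 19 of 24 passed the spread test, beside 5.98% of all 12014 genes in the test. After adjustment 0 passed. With median centring 14 passed after adjustment, beside 0.966% of all genes. Genes of this list were chosen with these differences already known, and Il6ra is on it as well.

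Against the reference, 8 of 28 tested targets were called above and 0 below, beside 14.5% and 13% of all genes. The targets' median ratio was 0.86, beside -0.02 over all genes. The highest were Saa1, a serum amyloid A with close paralogs that may share its signal, at 1.85 ± 1.56 and Hp, haptoglobin, at 1.81 ± 0.92 (SD, n = 5, limma adjusted p = 0.0459 and 0.00858). Their ratios in liver 3 were -0.63 and 0.23, and in liver 2 they were 3.45 and 2.45. Their reference channels varied as well, with SDs of 0.99 and 0.63. The count of calls was 3 without liver 1, 5 without liver 2, 18 without liver 3, 4 without liver 4 and 5 without liver 5. The Hp call was lost without liver 1 (0.0615), and that of Saa1 without liver 1, 2, 4 or 5 (0.0654 to 0.215) and in 7 processing alternatives (0.0519 to 0.146). Bcl3 (-0.05, 1.60, -0.73, -0.57 and 0.14 in livers 1 to 5), Cebpd (0.11, 1.13, -0.48, -0.27 and -0.01) and Cebpb (-0.40, 0.62, -0.93, -0.79 and -0.73) encode regulators of transcription in the acute phase. Their means did not pass the test, yet each was highest in liver 2 and lowest in liver 3. Pim1, Myc, Mcl1 and Junb, targets known from other cell types, had smaller SDs of 0.28, 0.14, 0.25 and 0.16. Saa4, Lbp, Crp, Cp and Steap4 had too few usable spots and were not tested.

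**Figure D4:**
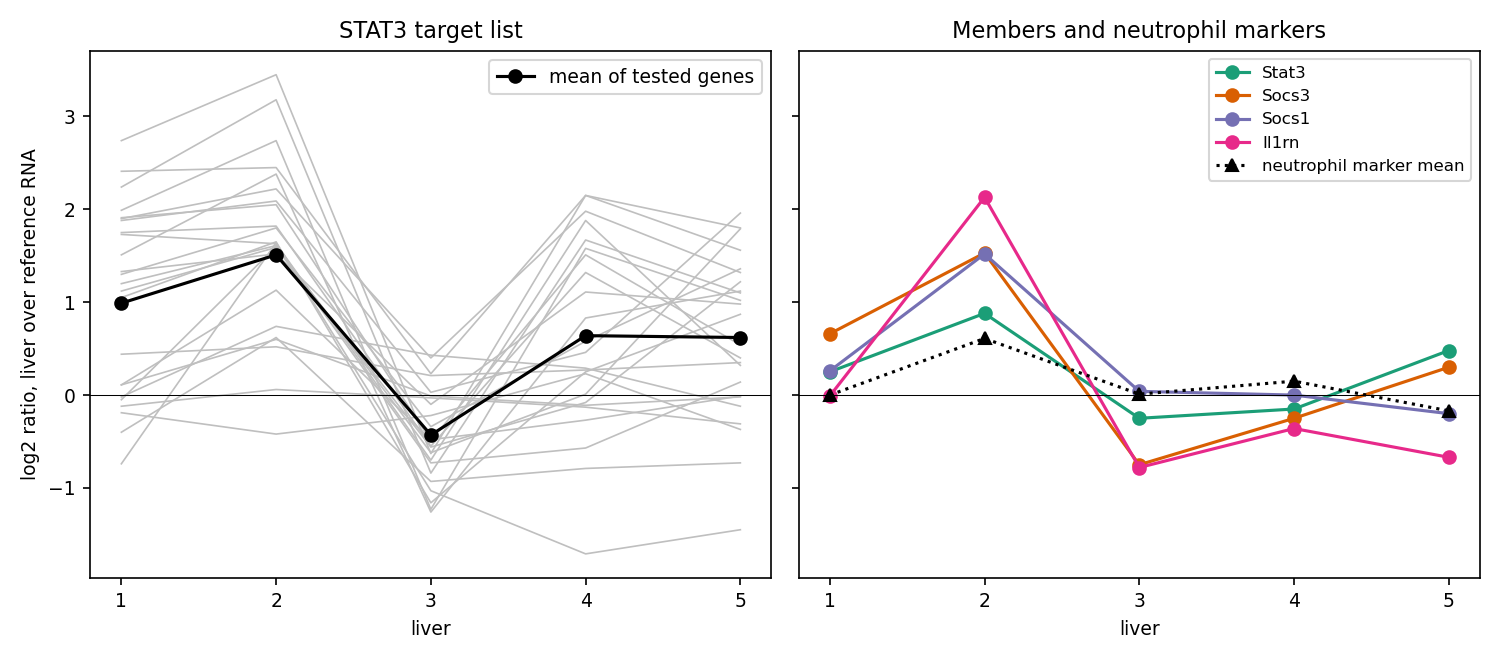
Left, log2 ratio of liver over reference (vertical axis) for each tested STAT3 target with a value in every liver (grey lines) and the mean of all tested targets with a value in that liver (black) in livers 1 to 5 (horizontal axis). Right, the same axes for Stat3, Socs3, Socs1 and Il1rn and for the mean of the neutrophil markers (dotted); lines only join points, and 21 of 24 targets and all 4 members drawn are highest in liver 2.

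The IL-1 pathway, on which Il1rn acts, had 1 of 17 tested genes called above the reference and 2 below, beside 14.5% and 13% of all genes. The list's median ratio was 0.01. Myd88, the adaptor of the IL-1 receptor, stood at 0.42 ± 0.21 (SD, n = 5, limma adjusted p = 0.00953). Il1rap, the receptor's accessory chain, stood at -0.32 ± 0.20 (n = 5, limma adjusted p = 0.0282), and Casp1, the protease that matures IL-1, at -0.32 ± 0.24 (n = 4, limma adjusted p = 0.0474). The call of Il1rap was lost without liver 1, 2, 4 or 5 (0.0682 to 0.0775), and that of Casp1 without liver 2, 3, 4 or 5 (0.0603 to 0.157), without trend and robust prior (0.0537) and with outlier spots kept (0.0541). In the processed signals Myd88 stood at 0.66 and Casp1 at -0.64, and both were called.

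Il1r1, the receptor that the Il1rn protein occupies, had ratios of 0.60, 1.77, -1.95, -1.50 and 0.22 in livers 1 to 5, an SD of 1.54. Like Socs3 it was high in livers 1 and 2 and low in livers 3 and 4, and its reference channel had an SD of 0.53. Irak3, an inhibitor of the same pathway, stood at -0.04, 0.77, -0.48, -0.31 and 0.14. These were the 2 of 13 genes of the list with an unadjusted spread p under 0.05, beside 5.98% of all genes in the test. The ratios of the cytokine genes had narrower ranges, Il1b lying between -0.30 and 0.19 and Il1a between -0.62 and 0.07. Il1b was dim, with liver signals of 24.5, 96.7, 58.8, 59.4 and 55 in livers 1 to 5. The offset of 50 used in the background correction narrows ratios at such signals, so its narrow range does not show that its RNA varied little.

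The genes whose centred ratios lay nearest to each of these members were sought among 714 other genes with an unadjusted spread p under 0.05, by the root mean square difference over 5 livers. Sbno2 (0.06), Eppk1 (0.07) and Cers6 (0.08) were nearest to Stat3, whose own root mean square around its mean was 0.42. Syt12 (0.13), Sgms1 (0.13) and Tgm1 (0.14) were nearest to Socs3, which had 0.78. Doc2g (0.10), Apod (0.10) and Stil (0.11) were nearest to Socs1, which had 0.62. Tlr2 (0.26), Pfkfb3 (0.27) and Cxcl1 (0.27) were nearest to Il1rn, which had 1.07. Tlr2, the receptor for bacterial lipopeptides, stood at 1.91 in liver 2 and between -0.42 and 0.03 in the other livers, much as Il1rn did. All of these shared the arrays, and a list of so many candidates over 5 livers will hold near profiles whatever the genes do.

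Markers of other cells differed between livers as well. Of 10 neutrophil markers 9 were tested, and their mean ratio was 0.00, 0.61, 0.01, 0.15 and -0.17 in livers 1 to 5. Liver 2 was highest for 7 of 9, against 23% of all probes with 5 values. In the liver channel 8 of the 9 were well above background on all arrays and S100a8 was so on some. Lymphocyte markers had a mean of 0.37 and hepatocyte markers of 0.41 in liver 2, the highest of the 5 livers, but only 2 of 7 and 1 of 5 markers with all values were highest there. A list's mean leaves out genes without a value in that liver, so the genes behind it differ between livers. Tat, Cyp2e1 and Cd3g had none in liver 1, and Hnf4a had none in livers 4 and 5. Kupffer cell and macrophage markers ran from -0.56 in liver 3 to -0.15 in liver 2, with 8 of 11 called below the reference, beside 13% of all genes. Sinusoidal endothelial markers ran from -0.48 in liver 4 to -0.18 in liver 5, with -0.44 in liver 2, and 5 of 8 were called below. Stellate cell markers were lowest in liver 2, at -0.46, and lay between -0.22 and -0.08 in the other livers. Bile duct markers stood at 0.06 in livers 1 and 2 and below 0 in livers 3, 4 and 5. In liver 5, where the neutrophil mean was lowest, Stat3 (0.48) and Socs3 (0.30) were above the reference and Socs1 (-0.20) and the Il1rn probes (-0.67 and -0.33) below it. The part of these cells in the values of Stat3, Socs1, Socs3 and Il1rn was not tested.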

How the data were processed

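Per the file headers, the authors read spot intensity values with Agilent Feature Extraction (version 11.5.1.1): a median brightness for each spot and its local background, not normalized. The files also hold processed intensities and, as deposited, their log10 ratio of Cy5 over Cy3. A deposited table gives log2 ratios that matched the processed intensities to within 0.001 for 99.7% of values, so its scale and direction are known; its medians ran from -0.10 to -0.03. Here, normexp (offset 50, on median signals, since the files used give no mean signal) and loess were applied in limma 3.58.1 (R 4.3.3). Control and outlier spots (2.32% to 4.05% per array) were left out, spots of a probe were averaged, and 0 spots were saturated. A probe was tested if at least 3 arrays showed it clearly over background in Cy5 or Cy3 and at least 3 values remained (intercept fit, intensity trend, robust prior, two-sided, Benjamini-Hochberg over 31887 probes); all 18 member probes passed. Symbols came from RefSeq accessions (GRCm38.p6): 24375 probes matched and 16799 did not. The fit was tested on simulated data. Named genes are all members, per list up to 2 highest and 2 lowest called genes, and the 3 nearest genes. No gene passed the adjusted spread test that the rule asks for, so the unadjusted one was used, and further list genes were named after their values were seen. Members and lists were chosen with earlier results of these data known. The alternatives varied normalization, starting signal, filters, unit of the fit, the prior and the set of livers. Some results of the lists are not reported here.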

Additional observations from a re-analysis of the deposited data

Results flagged for a closer look

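Liver 2 stood far from the other livers for 3 of the 18 member probes examined, where its gap to the nearest liver was over 0.71 of the whole range. These were Socs1 with a log2 ratio of 1.52 in liver 2 (gap 0.737 of the range), the Il1rn probe A_51_P307166 with 2.13 (0.733) and the Il1rn probe A_52_P431159 with 1.83 (0.72). The Il1rn probes measure the same gene in the same RNA, so they are a single observation made by separate probes. Chance flags about 1 in 20 groups of values. Stat3 and Socs3 were highest in the same liver without being set apart from the others by this measure.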

How the results depend on the processing

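No paired analysis was possible because the samples form 1 group, and the fit with slide or scan as a block was not run, since each array has a slide of its own and all were scanned in 1 session. Member probes called above the reference, 1 as reported, were 0 with Agilent's processed signals, in the deposited ratios and with probes averaged per gene, and 0 to 2 when a liver was left out. Those called below, 3 as reported, were 1 with the brightest probe per gene and with probes averaged, and 0 to 2 when a liver was left out. They were 2 with median centring, with the processed signals and in the deposited ratios. Without background correction, without the filter, and without trend and robust prior they were also 2. Probes passing the adjusted spread test, 0 as reported and 0 with any liver left out, were 3 with median centring and 4 in the chi-square form. Called pathway list genes, 15 above and 9 below as reported, were 8 to 25 above and 2 to 10 below when a liver was left out. The brighter Il1rn probe reversed without liver 2, to -0.46, and ranged from -0.46 to 0.27 with a liver left out. Over named probes and alternatives, 466 values kept their side of the threshold, 68 lost a call, 3 gained a call and 1 reversed; apart from the spread counts, the cause was not tested. The prior degrees of freedom of the spread test, 5.2 at most, limit what it can call with 5 arrays. Osmr and Il6 are limited by signal over background. All arrays share a dye orientation, so a dye effect of a single probe is part of its ratio.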
